A study of Mus musculus with 468 samples.

Results

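High-leptin and low-leptin adipose tissue libraries were compared. They are 49.6 percent of the libraries of the series and were chosen on the level of leptin mRNA (Lep) alone, used as an expression stand-in for fat mass. Lep was expressed as CPM (the gene's count per 1000000 summed counts of the library). The libraries with no counts for Ddx3y, a gene of the Y chromosome (48.5 percent of the series), were ranked separately from those with Ddx3y counts (51.5 percent). In each set the 25 percent of libraries with the highest and the 25 percent with the lowest Lep CPM were taken. This gave 56 high-Lep and 56 low-Lep libraries without Ddx3y counts (Ddx3y-negative) and 60 high-Lep and 60 low-Lep libraries with them (Ddx3y-positive). The libraries in between, 24.6 and 25.9 percent of the series, were kept apart and examined separately.

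Each library was polyA RNA from the adipose tissue of 1 Diversity Outbred mouse, and the study's methods name the gonadal fat pad. Diversity Outbred mice are an outbred population bred from 8 inbred founder strains, so that every animal carries its own mosaic of founder alleles. All groups compared here shared the tissue and a high-fat, high-sugar diet (45 percent fat), and the labels name no introduced allele and no other agent. The labels put the libraries in 1 group and give no sex, age, fat mass or body weight, so the high-Lep and low-Lep libraries are groups made from a measured value and not groups assigned by the study, and each animal gave 1 library.

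Leptin is a hormone that fat cells release in proportion to their stored lipid. It acts on the hypothalamus through its receptor Lepr and restrains food intake. When a fat pad enlarges, its fat cells grow, macrophages gather around dying fat cells and take up their lipid, and the matrix around the cells is rebuilt.

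Lep (ENSMUSG00000059201) lies on chromosome 6 from 29060220 to 29073877 on the plus strand of GRCm38, and no other annotated gene overlaps it. Its promoter in RefSeq (GRCm38.p6, chr6:29059971-29060270, plus strand, 250 bases before to 50 after the start) is shown because the libraries were chosen on this transcript. The capitals mark the palindrome TTGCGCAA, the binding motif of the C/EBP adipogenic factors, 55 bases before the start, and the TATA box core TATAA, which matches on the given strand 31 bases before the start and overlaps a match on the reverse complement 32 bases before it.
Lep: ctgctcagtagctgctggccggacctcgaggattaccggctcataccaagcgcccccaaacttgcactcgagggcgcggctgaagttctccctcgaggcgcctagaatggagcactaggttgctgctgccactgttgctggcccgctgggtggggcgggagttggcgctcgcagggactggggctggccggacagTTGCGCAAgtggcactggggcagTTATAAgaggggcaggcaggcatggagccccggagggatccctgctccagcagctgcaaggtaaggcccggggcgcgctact
Searched on both strands, TTGCGCAA was present in 0.183 percent of the 32851 promoters of the same length in the RefSeq table, and TATAA in 24.9 percent.

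In the Ddx3y-negative libraries Lep ran from 0.707 to 243.1 CPM with a median of 120 in the low-Lep group, and from 1127 to 4352 CPM with a median of 1724 in the high-Lep group. In the Ddx3y-positive libraries it ran from 51.6 to 1031 CPM with a median of 503.04, and from 3014 to 5701 CPM with a median of 3594. The groups do not overlap because Lep chose them, and Lep was given no test. The high-Lep median was 14.4 times the low-Lep median in the Ddx3y-negative libraries and 7.14 times in the Ddx3y-positive libraries, so the contrast in leptin was unequal between the 2 sets. At the lower limit, the last library inside had 243.1 CPM and the first outside 252.45 CPM in the Ddx3y-negative set, against 1031 and 1091 CPM in the Ddx3y-positive set. At the upper limit, the values outside and inside were 1112 and 1127 CPM in the Ddx3y-negative set and 2997 and 3014 CPM in the Ddx3y-positive set.

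**Figure D1:**
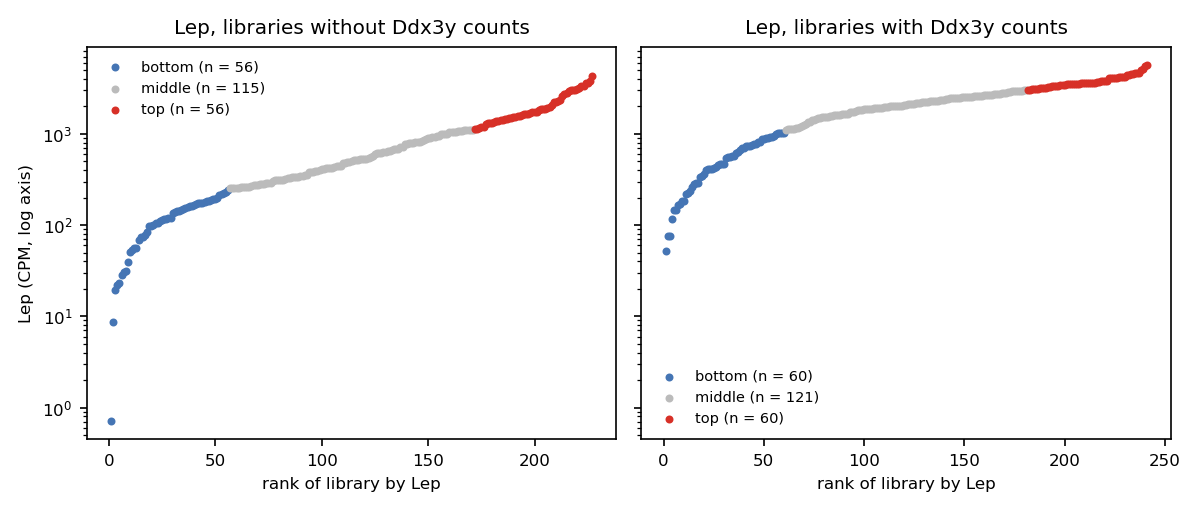
Lep CPM of every library of the series on a log axis against the rank of the library, without Ddx3y counts at the left and with them at the right; each point is 1 library, coloured by low-Lep (bottom), intermediate (middle) or high-Lep (top) group. The low-Lep and high-Lep medians were 120 and 1724 CPM without Ddx3y counts and 503.04 and 3594 CPM with them, and the low-Lep Ddx3y-positive range, 51.6 to 1031 CPM, overlaps that of the intermediate Ddx3y-negative libraries.

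Total counts ran from 35.3 M to 137.8 M (M, 1000000 counts) over the libraries of the series, with a median of 82 M. Xist, the transcript that silences an X chromosome, ran from 286.9 to 882 CPM in the Ddx3y-negative groups and from 0 to 4.44 CPM in the Ddx3y-positive groups. Adipoq, the fat cell hormone adiponectin, had group medians from 1423 to 2402 CPM, the labelled tissue's defining marker. In all, 40 libraries stood apart by at least 1 of 3 measures (over 10 percent of counts in the transcript CT010467.1, under 100 CPM of Xist without Ddx3y counts, or markers of another tissue at over 20 times the median), of which 1 was in each Ddx3y-negative group, 10 in the low-Lep and 4 in the high-Lep Ddx3y-positive group. The library with 0.707 CPM of Lep had 2083 CPM of Adipoq. Another low-Lep Ddx3y-negative library held 730 CPM of the macrophage marker Adgre1 against 29.6 CPM of Cd68. Because the tissue was measured in bulk, fewer cells of a type and less RNA per cell cannot be told apart in any result that follows.

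All genes other than Lep were then tested, high-Lep against low-Lep, with edgeR's quasi-likelihood test and Benjamini-Hochberg adjustment over 18379 genes, and a gene was called at an adjusted p under 0.05. In the Ddx3y-negative libraries 5853 genes were higher in the high-Lep group (31.8 percent of those tested) and 6199 were lower (33.7 percent). In the Ddx3y-positive libraries 5890 were higher (32 percent) and 6518 lower (35.5 percent). A call alone was therefore common at this number of libraries, and the counts of each gene group below are read against these shares. Differences of at least 2-fold were rarer: 3.99 percent of the genes were higher and 3.14 percent lower by that much without Ddx3y counts, and 4.40 percent higher and 3.05 percent lower with them. The median log2 difference over all genes was -0.01 and -0.03.

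The 2 sets share no library. Called higher in both were 4044 genes (22 percent of those tested), which is 69.1 percent of the genes higher in the Ddx3y-negative set and 68.7 percent of those higher in the Ddx3y-positive set. Called lower in both were 4232 genes (23 percent), 68.3 and 64.9 percent of the respective lists. Another 902 genes were called in opposite directions. In the plot of one set against the other, Tph2 and Mmp12 lie far out at the upper right and Irf4 and Acsm3 at the lower left. Below, where 2 log2 differences (high-Lep minus low-Lep) are given for a gene, the Ddx3y-negative value comes first and the Ddx3y-positive value second. They come from the edgeR fit of rounded counts with TMM-normalised library sizes, whereas the CPM ranges and medians are not TMM-scaled. The ± is a standard error derived from the F statistic of the test, over 56 against 56 and 60 against 60 libraries.

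**Figure D2:**
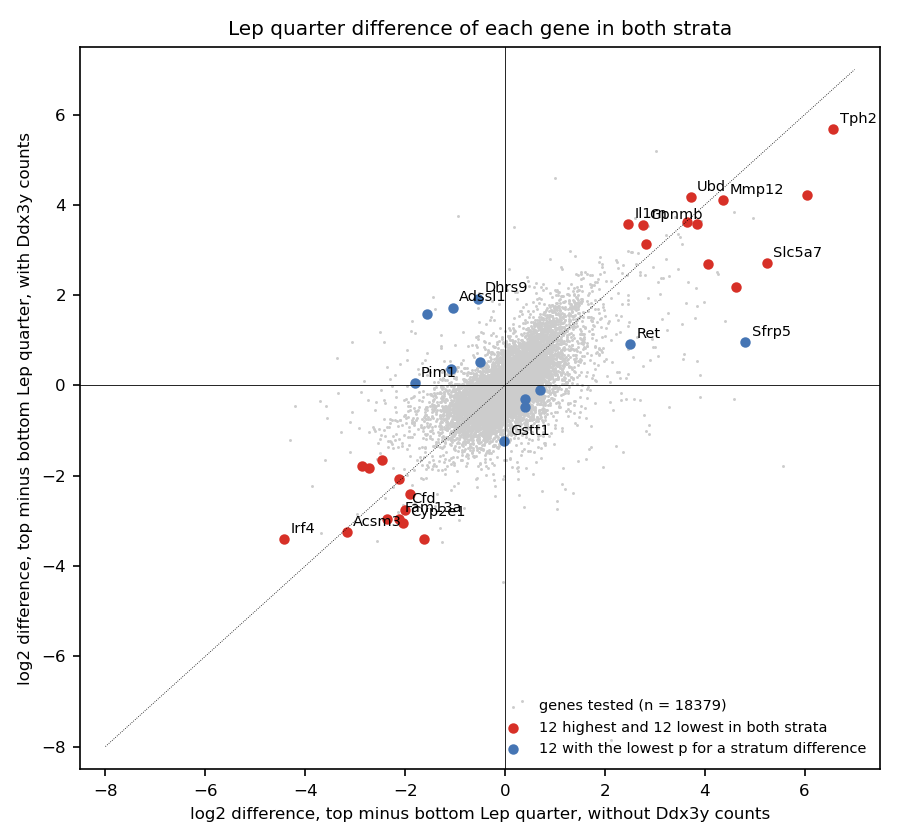
Log2 difference between high-Lep and low-Lep libraries of each tested gene, without Ddx3y counts on the x axis and with them on the y axis, with some of the named genes labelled. Tph2, at 6.57 and 5.67, lies at the upper right and Irf4, at -4.42 and -3.40, at the lower left, while Adssl1, at -1.04 and 1.72, lies in the upper left part.

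The 12 genes with the largest increase in both sets are described first. Itgax, the integrin CD11c of activated macrophages, ran from 0.232 to 7.25 CPM (median 1.46) in the low-Lep Ddx3y-negative libraries and from 2.51 to 157.2 CPM (median 15.6) in the high-Lep ones. In the Ddx3y-positive libraries it ran from 1.31 to 51.8 CPM (median 6.77) and from 14 to 390.5 CPM (median 94.8). The ranges overlapped, but 41 of 56 and 46 of 60 high-Lep libraries lay above every low-Lep library, and all high-Lep libraries lay above the low-Lep median. The log2 difference was 3.84 ± 0.26 (adjusted p = 1.07e-25) and 3.58 ± 0.22 (adjusted p = 1.56e-30).

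Mmp12, the macrophage elastase, ran from 0.0542 to 20.9 CPM (median 0.667) against 1.29 to 220 CPM (median 19.1) without Ddx3y counts, and from 0.652 to 103.02 CPM (median 6.95) against 9.35 to 634.3 CPM (median 163.8) with them. The log2 difference was 4.37 ± 0.35 and 4.10 ± 0.28. Gpnmb, a membrane glycoprotein of lipid-laden macrophages, had medians of 9.85 and 51.8 CPM without and 28.8 and 309.1 CPM with Ddx3y counts. Its ranges, 3.38 to 50.8 against 6.11 to 660 CPM and 10.6 to 202.2 against 20.9 to 1488 CPM, overlapped more than those of Itgax. The difference was 2.76 ± 0.27 and 3.55 ± 0.22. Atp6v0d2, a subunit of the proton pump of lysosomes, was higher by 3.65 and 3.62, Itgad, the integrin CD11d, by 6.04 and 4.23, and Il1rn, the antagonist of the interleukin 1 receptor, by 2.46 and 3.57. Rgs1, a regulator of G protein signalling in leukocytes, was higher by 2.83 and 3.14.

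Tph2, the neuronal form of the enzyme that starts serotonin synthesis, had the largest difference of the 12. It ran from 0 to 0.899 CPM (median 0.132) against 0.0346 to 177.2 CPM (median 6.68) without Ddx3y counts, and from 0 to 3.69 CPM (median 0.44) against 0.0431 to 115.2 CPM (median 26.8) with them. Of the high-Lep libraries, 47 of 56 and 42 of 60 lay above every low-Lep library, and 3 and 9 lay below the low-Lep median, so high leptin was not always accompanied by high Tph2. The log2 difference was 6.57 ± 0.45 and 5.67 ± 0.42. Slc5a7, the choline transporter of cholinergic neurons, had medians of 0.457 and 23.5 CPM without and 15.4 and 117.8 CPM with Ddx3y counts. Its difference was 5.24 ± 0.35 in the first set and 2.71 ± 0.21 in the second. The long intergenic RNA 1700047G03Rik was the gene of the 12 with the cleanest separation in the Ddx3y-negative set, where the 56 high-Lep libraries (8.17 to 123.9 CPM, median 45.6) all lay above the 56 low-Lep libraries (0.0303 to 5.33 CPM, median 1.44). In the Ddx3y-positive set its ranges overlapped, 0.588 to 99 CPM against 25.7 to 163.4 CPM, and the difference was 2.19 ± 0.19 after 4.63 ± 0.23. Ubd, a ubiquitin-like protein induced by inflammatory cytokines, was higher by 3.72 and 4.18, and Cdkl4, a little studied protein kinase, by 4.07 and 2.69.

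Promoters of 3 of the macrophage genes are shown because they hold the motif TGAGTCA, to which AP-1 factors bind. Capitals mark the match, which is 44 bases before the start in Mmp12 (chr9:7347124-7347423, plus strand, 1 of 2 RefSeq promoters of the gene), 56 bases before it in Itgax (chr7:128129300-128129599, plus strand) and, on the reverse complement, 9 bases after it in Gpnmb (chr6:49036268-49036567, plus strand).
Mmp12: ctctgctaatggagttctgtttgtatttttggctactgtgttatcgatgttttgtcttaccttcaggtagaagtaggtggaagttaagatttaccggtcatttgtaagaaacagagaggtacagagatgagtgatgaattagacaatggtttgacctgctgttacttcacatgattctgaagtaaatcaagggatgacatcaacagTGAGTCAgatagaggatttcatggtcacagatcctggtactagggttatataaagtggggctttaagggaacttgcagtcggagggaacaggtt
Itgax: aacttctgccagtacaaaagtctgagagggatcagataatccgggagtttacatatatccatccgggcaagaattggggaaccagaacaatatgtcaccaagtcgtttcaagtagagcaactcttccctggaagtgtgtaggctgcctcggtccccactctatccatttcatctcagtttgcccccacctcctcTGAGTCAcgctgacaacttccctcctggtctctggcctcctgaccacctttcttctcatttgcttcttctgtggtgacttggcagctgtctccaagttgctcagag
Gpnmb: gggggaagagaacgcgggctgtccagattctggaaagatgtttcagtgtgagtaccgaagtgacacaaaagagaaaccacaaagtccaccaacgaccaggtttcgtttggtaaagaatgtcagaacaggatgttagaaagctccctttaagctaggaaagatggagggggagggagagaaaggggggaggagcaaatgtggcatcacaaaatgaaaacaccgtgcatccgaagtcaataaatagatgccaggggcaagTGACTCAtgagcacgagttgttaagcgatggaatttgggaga
The motif was present in 4 of the 9 promoters found for the 12 genes above (Gpnmb, Il1rn, Itgax and Mmp12), in 8.73 percent of the promoters of genes at least 2-fold higher in both sets and in 2.91 percent of those at least 2-fold lower in both. It was present in 4.89 percent of the promoters of all tested genes and in 5.20 percent of all promoters in the table. Over all genes higher in both sets its share was 5.08 percent, and over all genes lower in both 3.87 percent. The motifs were chosen after their shares had been seen, 12674 of the tested genes (69 percent) had a promoter in the table, and a match is a description of the letters in this window only.

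The macrophage markers rose as a group. Of 18 tested, 15 were higher and 0 lower without Ddx3y counts, with a median log2 difference of 0.75, and 17 were higher and 1 lower with them, with a median of 1.32. The summed level of the 18 ran from 330 to 2743 CPM (median 775) in low-Lep and from 633.1 to 3897 CPM (median 1432) in high-Lep Ddx3y-negative libraries. In the Ddx3y-positive libraries it ran from 417.7 to 2787 CPM (median 1077) and from 1281 to 6610 CPM (median 2741), so the groups overlapped in both sets. Cd68, a glycoprotein of macrophage endosomes, was higher by 1.25 ± 0.14 and 2.03 ± 0.12, Ctss, a cathepsin of antigen presentation, by 1.38 and 2.02, and Cd84, a leukocyte adhesion receptor, by 1.73 and 2.44. Lyz2, lysozyme, was higher by 0.92 and 1.38 and Csf1r, the receptor for the macrophage growth factor, by 0.53 and 0.89. Adgre1, the F4/80 antigen, was higher by 0.46 ± 0.18 and 1.64 ± 0.12. In a fit of both sets, the difference was larger with Ddx3y counts for 16 of the 18, against 19.7 percent of all genes larger with them and 21.8 percent smaller.

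Genes of lipid-associated macrophages gave 12 of 16 higher and 0 lower without Ddx3y counts (median 0.77) and 14 higher and 1 lower with them (median 1.35). Beside Itgax, Mmp12 and Gpnmb, Spp1, the secreted osteopontin, was higher by 2.86 and 1.95, and the lysosomal protease Ctsb by 0.28 and 0.91. Apoe, an apolipoprotein that fat cells make as well, was higher by 0.17 and then lower by 0.54, the 1 lower member. Genes of resident tissue macrophages moved less. Of 11, 8 and 7 were higher and 0 lower (medians 0.38 and 0.42), with Mrc1, the mannose receptor, higher by 0.56 and 0.97, Folr2, a folate receptor, by 0.71 and 0.91, and Gas6, a ligand of the receptor Mertk, at 0.04, not called, and 0.26.

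Of 25 chemokines and chemokine receptors tested, 16 were higher and 2 lower without Ddx3y counts (median 0.72), and 16 higher and 3 lower with them (median 1.06). Ccl2, which recruits monocytes, ran from 0.167 to 1.48 CPM (median 0.696) in low-Lep and from 0.494 to 20.4 CPM (median 2.91) in high-Lep Ddx3y-negative libraries, and from 0.263 to 6.78 CPM (median 1.85) and 2.67 to 64.5 CPM (median 15) in the Ddx3y-positive ones. It was higher by 2.52 and 2.97, and its neighbour Ccl7 by 2.54 and 2.95. The monocyte chemokine Ccl6 was higher by 0.65 and 1.30, while Cxcl12, a chemokine of stromal cells, was lower by 0.22 in the Ddx3y-negative set and gave -0.06, not called, in the other. Of 15 genes of innate sensing and cytokines, 7 were higher and 1 lower, then 9 higher and 2 lower (medians 0.27 and 0.72). Saa3, the acute phase protein that mouse fat makes, was higher by 1.46 ± 0.26 and 2.45 ± 0.28. Tnf, the cytokine, was higher by 0.86 and 0.87, and the interleukin Il1b lower by 1.04 without Ddx3y counts and not called with them (-0.51). Ptgs2, the inducible cyclooxygenase, was lower by 1.80 with Ddx3y counts and not called without (0.27), while Nfkb1, a subunit of NF-kB, was called in neither set (-0.04 and 0.05).

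With Adgre1 as a covariate, an alternative in which libraries are compared at the same level of that macrophage marker, the counts of these groups fell in both sets. In the Ddx3y-positive set the macrophage markers went from 17 to 4 higher, the chemokines from 16 to 7 and the innate genes from 9 to 4, whose median turned from 0.72 to -0.15. In the Ddx3y-negative set the macrophage markers went from 15 to 12 (median from 0.75 to 0.21), the chemokines from 16 to 11 (0.72 to 0.18) and the innate genes from 7 to 4 higher, with 3 lower. The resident macrophage genes went from 7 to 3 higher with Ddx3y counts and from 8 to 3 without them. Of the lipid-associated genes 11 of 16 were higher with and 10 of 16 without Ddx3y counts (medians 0.52 and 0.41, after 1.35 and 0.77). Adgre1 is itself a member of the macrophage list, and what part macrophage content has in the other groups was not tested. As given above, Adgre1 differed more between the Lep groups with than without Ddx3y counts. Losses of calls under this covariate, here and below, therefore cannot be compared directly between the sets. Tnf and Folr2 turned to -0.20 and -0.11 with Ddx3y counts, neither called.

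Among the 12 genes with the largest decrease, several belong to fat cells themselves. Cfd, the complement factor adipsin secreted by fat cells, ran from 1634 to 9250 CPM (median 4260) in low-Lep and from 199.2 to 3444 CPM (median 1168) in high-Lep Ddx3y-negative libraries. In the Ddx3y-positive libraries it ran from 670 to 6467 CPM (median 2245) and from 44.4 to 909 CPM (median 328.8). Of the high-Lep libraries, 45 of 56 and 51 of 60 lay below every low-Lep library. The log2 difference was -2.01 ± 0.14 (adjusted p = 5.65e-25) and -2.75 ± 0.16 (adjusted p = 9.19e-32).

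Cyp2e1, a cytochrome P450 best known from liver, ran from 803 to 10362 CPM (median 3154) against 127.9 to 2528 CPM (median 900) without Ddx3y counts, and from 611.5 to 10813 CPM (median 2783) against 20 to 1536 CPM (median 290.6) with them. The difference of Cyp2e1 was -2.03 ± 0.17 and -3.04 ± 0.23. Albumin (Alb), the liver plasma protein, was at -0.55 and -0.42, not called, but was called with Ddx3y counts in larger groups, the upper and lower tertile (-0.92), and the part of liver tissue in the Cyp2e1 values was not tested. Fam13a, a gene tied to fat distribution in human genetics, had medians of 724 and 182.3 CPM without and 513.2 and 57.8 CPM with Ddx3y counts, and was lower by 2.13 ± 0.14 and 2.95 ± 0.16. Its high-Lep libraries lay below every low-Lep library in 45 of 56 and 55 of 60 cases. The antisense gene BB365896 overlaps Fam13a and was lower by 2.36 and 2.96. Whether the counting used strand is not stated, so its reads cannot be told apart from those of Fam13a.

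Irf4, the transcription factor that serves leukocytes and the fasting response of fat cells, ran from 20.6 to 2416 CPM (median 162.6) against 6.07 to 37.8 CPM (median 11.8) without Ddx3y counts, and from 8.58 to 1208 CPM (median 45.6) against 6.01 to 26.6 CPM (median 10.6) with them. High-Lep libraries were close together and low-Lep libraries spread over a wide range. The difference was -4.42 ± 0.24 and -3.40 ± 0.26. Acsm3, an enzyme that activates medium-chain fatty acids, had medians of 122.8 and 12.8 CPM without and 29.5 and 2.93 CPM with Ddx3y counts, and was lower by 3.17 ± 0.23 and 3.25 ± 0.18. In the Ddx3y-positive set 58 of 60 high-Lep libraries lay below every low-Lep library. Mycl, a MYC family factor, was lower by 1.89 and 2.40, and St6galnac5, a sialyltransferase, by 2.12 and 2.07. The transcript 2010016I18Rik was lower by 1.61 and 3.41.

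Mfsd2a and Atp2a1, also among the 12, rested on few libraries in the Ddx3y-positive set. Mfsd2a, a lipid transporter, was lower by 2.86 and 1.79, but its Ddx3y-positive medians were 0.419 and 0.191 CPM under maxima of 160 and 77.2 CPM. The Ddx3y-positive call was lost in the extreme 10 percent of libraries (-0.41) and with Adgre1 as a covariate (-0.51). Atp2a1, the calcium pump of fast muscle, was lower by 2.47 and 1.65, with Ddx3y-positive medians of 0.29 and 0.314 CPM. Its Ddx3y-positive difference turned to 0.26 with DESeq2, 0.16 with limma and 0.90 with Adgre1 as a covariate.

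The promoter of Fam13a (chr6:59024453-59024752, minus strand) is shown because it holds the nuclear receptor motif AAGGTCA, in capitals, 9 bases before the start.
Fam13a: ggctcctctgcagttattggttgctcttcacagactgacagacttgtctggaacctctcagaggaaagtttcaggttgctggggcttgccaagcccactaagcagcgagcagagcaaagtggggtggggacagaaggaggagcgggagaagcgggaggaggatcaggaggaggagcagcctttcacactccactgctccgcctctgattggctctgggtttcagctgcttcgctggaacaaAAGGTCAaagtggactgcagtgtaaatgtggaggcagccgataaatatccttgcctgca
That motif was present in 11.7 percent of the promoters of genes at least 2-fold lower in both sets, which is 12 promoters. Its share was 4.73 percent for genes at least 2-fold higher in both and 4.72 percent for all promoters in the table. Over all genes lower in both sets it was 4.46 percent, and over all genes higher in both 3.95 percent. Over all tested genes it was 4.18 percent, so the full list of lower genes stood close to all tested genes.

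**Figure D3:**
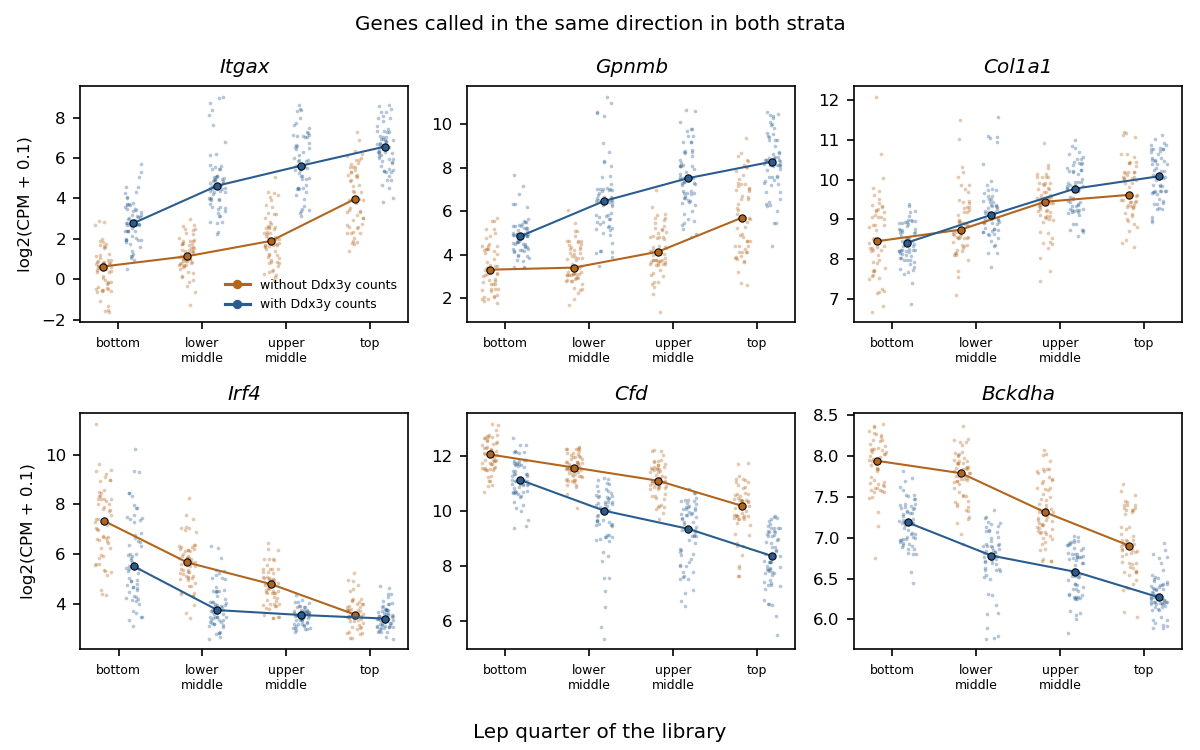
Level (log2 of CPM + 0.1) of 6 genes that differed in the same direction in both sets, by group of libraries from low-Lep (bottom) through the lower and upper intermediate ones to high-Lep (top), without and with Ddx3y counts; each point is 1 library and the lines join the group medians. The Itgax medians rise from 1.46 to 15.6 and from 6.77 to 94.8 CPM and the Cfd medians fall from 4260 to 1168 and from 2245 to 328.8 CPM, with overlapping ranges.

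The other fat cell hormones did not move as 1 group. Of 18 adipokines, 5 were higher and 7 lower without Ddx3y counts and 6 higher and 9 lower with them (medians -0.14 and -0.23). Adiponectin (Adipoq), which raises insulin sensitivity, ran from 824 to 3046 CPM (median 1981) against 1362 to 3888 CPM (median 2402) without Ddx3y counts and was not called (0.12 ± 0.07, adjusted p = 0.117). With them it ran from 637.4 to 3427 CPM (median 2318) against 594.6 to 3514 CPM (median 1423) and was lower by 0.67 ± 0.08 (adjusted p = 9.80e-12), and the fit of both sets gave a difference of -0.82 between them (adjusted p = 1.46e-10). Resistin (Retn) was lower by 0.40 and 1.25. The antioxidant enzyme Gpx3 was lower by 1.94 and 1.14 and angiotensinogen (Agt) by 1.08 and 1.60.

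The leptin receptor did not follow its ligand. Lepr had low-Lep and high-Lep medians of 9.35 and 10.8 CPM without and 9.26 and 8.12 CPM with Ddx3y counts, and was called in neither set (0.07 ± 0.13, adjusted p = 0.636, and -0.15 ± 0.10, adjusted p = 0.191). Of the 12 genes of the leptin pathway, 4 were higher and 6 lower, then 5 higher and 4 lower, with medians of -0.01 and -0.01 beside -0.01 and -0.03 for all genes. Stat3, the factor that Lepr activates, was higher by 0.16 and 0.38, and Leprot, which shares its promoter region with Lepr, by 0.38 and 0.48. The feedback inhibitor Cish was lower by 1.34 and 1.04, and the insulin receptor substrate Irs2 by 0.57 and 0.59. Socs3, another feedback inhibitor, was called with Ddx3y counts alone (0.48, after 0.12), and that value turned to -0.23 with Adgre1 as a covariate.

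Genes known to follow fat mass or fat cell size rose clearly in the Ddx3y-negative libraries. Of 16, 14 were higher and 1 lower there (median 0.90), against 8 higher and 5 lower in the Ddx3y-positive libraries (median 0.15), and for 15 of the 16 the difference was smaller with Ddx3y counts. Npr3, the clearance receptor for natriuretic peptides, ran from 46.2 to 560 CPM (median 196.4) against 861 to 2054 CPM (median 1351) without Ddx3y counts, so that no library of the groups overlapped. With them it ran from 150 to 1829 CPM (median 846) against 1109 to 2492 CPM (median 1784), and 27 of 60 high-Lep libraries lay above every low-Lep library. It was higher by 2.46 ± 0.12 and 0.96 ± 0.10. Mest, an imprinted gene linked to fat cell size, was higher by 3.98 ± 0.31 and 1.85 ± 0.25, with medians from 12.7 to 268.04 and from 91.5 to 356.3 CPM. Cav1, the coat protein of the caveolae, was higher by 0.95 and 0.47. Nnat, an imprinted proteolipid gene, was higher by 1.73 and lower by 0.90, with medians from 64.8 to 352.4 and from 582.2 to 292.6 CPM, and the secreted protein gene Ccdc80 was higher by 0.61 and not called in the second set (-0.06).

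The transcription factors of fat cell identity and lipid synthesis were mostly lower, 1 higher and 15 lower of 20, then 2 higher and 13 lower (medians -0.33 and -0.28). The central factor Cebpa was lower by 0.17 without Ddx3y counts and not called with them (-0.10), and Srebf1, which drives lipid synthesis, was lower by 0.38 and 0.30. Larger decreases were those of the mitochondrial coactivator Ppargc1a, by 2.06 and 1.28, of Ppara, the receptor of fatty acid oxidation, by 2.07 and 0.87, and of Mlxipl, the carbohydrate-responsive factor, by 1.34 and 0.44. Held at the same Adgre1, the 13 lower in the Ddx3y-positive set became 6.

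De novo fatty acid synthesis was lower mainly in the Ddx3y-negative libraries. Of 17 genes, 13 were lower and 3 higher there (median -0.76), against 8 lower and 4 higher with Ddx3y counts (median -0.20), and for 12 the fit of both sets gave a higher value with Ddx3y counts. Acacb, the mitochondrial acetyl-CoA carboxylase, ran from 201.4 to 3006 CPM (median 1474) against 91.8 to 1176 CPM (median 323.6) without Ddx3y counts, and from 188.6 to 1326 CPM (median 540) against 125.1 to 524.6 CPM (median 248.8) with them, overlapping in both. It was lower by 2.13 ± 0.16 and 1.19 ± 0.10, and Acaca, the cytosolic enzyme, by 1.91 and 1.14. Fatty acid synthase (Fasn) fell from a median of 20100 to 6585 CPM without Ddx3y counts (-1.66 ± 0.15) and from 5564 to 5022 CPM with them (-0.34 ± 0.12), the latter turning to 0.0702 with Adgre1 as a covariate. The elongase Elovl6 was lower by 1.96 ± 0.25 and higher by 0.78 ± 0.18. Scd1, the desaturase and 1 of the most abundant transcripts of the tissue, had medians of 76334 and 83904 CPM without Ddx3y counts (-0.04, not called) and of 88768 and 63045 CPM with them (-0.50). The Ddx3y-positive count went from 8 to 3 lower with Adgre1 as a covariate and the median from -0.20 to 0.17; with Adipoq as a covariate it went to 5 lower.

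Of 15 genes of triglyceride synthesis, 11 were lower and 4 higher, then 8 lower and 5 higher (medians -0.61 and -0.22). Among the higher members was Dgat2, which adds the final fatty acid, by 0.73 and 0.82, with medians from 843 to 1701 and from 920 to 1766 CPM. Mogat2, a monoacylglycerol acyltransferase, was higher by 1.55 and 1.52 and its relative Mogat1 lower by 1.08 and 1.32. Pck1, which makes the glycerol backbone in fasted fat, was lower by 1.08 ± 0.09 and 1.14 ± 0.11.

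The lipolysis genes, which release stored fatty acids, were lower in 10 and higher in 4 of 19, then lower in 12 and higher in 3 (medians -0.30 and -0.29). The beta-3 adrenergic receptor Adrb3 ran from 88.5 to 919 CPM (median 510.6) against 123.4 to 701.3 CPM (median 397.9) without Ddx3y counts, and from 228.4 to 1121 CPM (median 664.7) against 58.7 to 933 CPM (median 247.8) with them. It was lower by 0.64 ± 0.10 and 1.30 ± 0.11. The triglyceride lipase Pnpla2 was lower by 0.68 and 0.78, and Hcar2, the niacin receptor that restrains lipolysis, by 1.22 and 0.93. The monoglyceride lipase Mgll was higher by 0.17 and not called in the second set (0.03). Held at the same Adgre1, the 12 became 7 in the Ddx3y-positive set, while the median moved from -0.29 to -0.23.

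The coat genes of the lipid droplet were split, 3 higher and 5 lower of 12, then 4 higher and 4 lower (medians -0.07 and -0.01). Plin2, the coat of droplets outside mature fat cells, was not called without Ddx3y counts, at medians of 504.1 and 564.9 CPM, and was higher by 1.20 with them, at medians of 336.01 and 761 CPM. Cidea, the droplet protein of brown fat, was lower by 2.64 and 0.93, and its relative Cideb lower by 1.24 and not called in the second set (-0.65). The white fat coat Plin1 was called only with Ddx3y counts (-0.06 and -0.27), Plin4 was higher by 0.39 and lower by 0.43, and Cidec was higher by 0.27 and not called in the second set (0.10). Fatty acid uptake was likewise mixed, 5 higher and 4 lower of 12, then 4 and 4 (medians 0.03 and 0.00). Lipoprotein lipase (Lpl) was higher by 0.24 and not called in the second set (-0.02), the fatty acid carrier Fabp4 was not called in the first (-0.09) and lower by 0.32 in the second, and the transporter Slc27a1 was lower by 1.41 and 0.89.

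Insulin signalling and glucose uptake gave the same count in both sets, 4 higher and 13 lower of 20 (medians -0.15 and -0.19). Irs1, the docking protein of the insulin receptor, ran from 61.6 to 220 CPM (median 125.8) against 29.7 to 184.7 CPM (median 71.2) without Ddx3y counts, and from 49.4 to 125.1 CPM (median 84.8) against 26.3 to 82.3 CPM (median 41.2) with them. It was lower by 0.91 ± 0.09 and 1.04 ± 0.07. Slc2a4, the insulin-responsive glucose transporter, was lower by 0.56 and 0.51, and Grb14, an inhibitor of the receptor, was higher by 0.87 and 0.89. The kinase Akt2 was lower by 0.23 and 0.13, the second value turning to 0.0143 with Adgre1 and 0.0277 with Adipoq as a covariate. In the Ddx3y-positive set the 13 lower became 6 with Adgre1 and 8 with Adipoq as a covariate.

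The breakdown of branched-chain amino acids was lower in high-Lep libraries throughout the pathway. All 23 genes tested were lower in both sets, with 0 higher, and the medians were -0.75 and -0.63. Bckdha, a subunit of the branched-chain ketoacid dehydrogenase, ran from 107.6 to 336.4 CPM (median 245.5) against 65.4 to 202.1 CPM (median 120) without Ddx3y counts, and from 86.8 to 225.7 CPM (median 145.6) against 59.5 to 121.8 CPM (median 77) with them. The groups overlapped in both sets, and the difference was -1.16 ± 0.09 and -0.91 ± 0.06. Aldh6a1, of valine breakdown, was lower by 0.93 and 1.02, Bcat2, the mitochondrial transaminase, by 0.78 and 1.08, and the dehydrogenase Hadh by 1.03 and 0.62. At the same Adgre1 22 and 20 of the 23 were lower, with smaller decreases (medians -0.54 and -0.36). At the same Adipoq 23 and 20 were lower (medians -0.77 and -0.45).

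Genes of the citric acid cycle gave 0 higher and 18 lower of 19 in both sets, with a median of -1.17 without and -0.45 with Ddx3y counts. Pdha1, of the pyruvate dehydrogenase complex, ran from 297.4 to 1521 CPM (median 776.9) against 203.4 to 797.0 CPM (median 305.7), and from 234.6 to 600.5 CPM (median 337.8) against 191.98 to 275.1 CPM (median 236.7). It was lower by 1.42 ± 0.11 and 0.55 ± 0.05, and Ogdh, of the oxoglutarate dehydrogenase complex, by 1.24 and 0.48. Of 45 nuclear genes of oxidative phosphorylation, 0 were higher and 44 lower, then 41 lower (medians -0.94 and -0.41). Sdha, a subunit of succinate dehydrogenase, was lower by 1.17 ± 0.09 and 0.66 ± 0.05, Uqcrc2, of the cytochrome bc1 complex, by 1.24 and 0.62, and the ATP synthase subunits Atp5a1 and Atp5b by 0.93 and 0.35 and by 0.91 and 0.53. For 42 of the 45 the fit of both sets gave a smaller decrease with Ddx3y counts.

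The 13 genes of the mitochondrial genome were lower without exception in the Ddx3y-negative set (median -1.10) and 10 were lower in the Ddx3y-positive set (median -0.42). Cytochrome oxidase subunit mt-Co1 had medians of 41567 and 19270 CPM without Ddx3y counts (-1.20 ± 0.11) and of 21098 and 15134 CPM with them (-0.46 ± 0.07), and cytochrome b, mt-Cytb, was lower by 1.21 and 0.53. Of the complex I subunits, mt-Nd3 was lower by 1.46 and 0.45 and mt-Nd4l by 1.24, and not called in the second set (-0.50). The mt-Co1 median of the low-Lep Ddx3y-positive libraries lay near that of the high-Lep Ddx3y-negative ones. Of the 13, 13 and 0 were lower with Adgre1 as a covariate (medians -0.77 and -0.03). The oxidative phosphorylation count in the Ddx3y-positive set went from 41 to 28 lower and that of the citric acid cycle from 18 to 12.

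Mitochondrial fatty acid oxidation gave 1 higher and 18 lower of 19 without Ddx3y counts (median -1.11) and 1 higher and 15 lower with them (median -0.29). Acadvl, which takes the first oxidation step on very long chains, was lower by 1.63 and 0.80, the trifunctional protein subunit Hadhb by 1.43 and 0.17 (Hadha, its partner, gave -1.4995 and -0.18) and the isomerase Eci1 by 1.37 and 0.78. The higher gene was Cpt1a in both sets, the gate of fatty acid entry into mitochondria, at 0.81 and 0.56, with medians from 67.5 to 137.7 and from 138.1 to 200.9 CPM. At the same Adgre1 18 and 8 were lower (medians -0.78 and -0.17).

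Thermogenic genes of brown and beige fat differed by level between the sets. Ucp1, the uncoupling protein, ran from 1.23 to 3308 CPM (median 748) in low-Lep and from 0.24 to 874 CPM (median 41.9) in high-Lep Ddx3y-negative libraries, and was lower by 2.87 ± 0.41. In the Ddx3y-positive libraries it ran from 0.065 to 54.1 CPM (median 2.85) and from 0.0817 to 34.5 CPM (median 2.99), and was not called (-0.15 ± 0.34, adjusted p = 0.701). Of 17 thermogenic genes tested, 15 were lower and 0 higher without Ddx3y counts (median -1.94), against 7 lower and 3 higher with them (median -0.15), and for 15 the 2 sets differed in the fit of both. Dio2, which activates thyroid hormone, was lower by 2.50 and higher by 1.18, Pdk4, which spares glucose, was lower by 1.76 and 0.56, and the elongase Elovl3 and the fatty acid transporter Slc27a2 were lower by 3.37 and 3.07 without Ddx3y counts and not called with them (0.60 and -0.59).

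**Figure D4:**
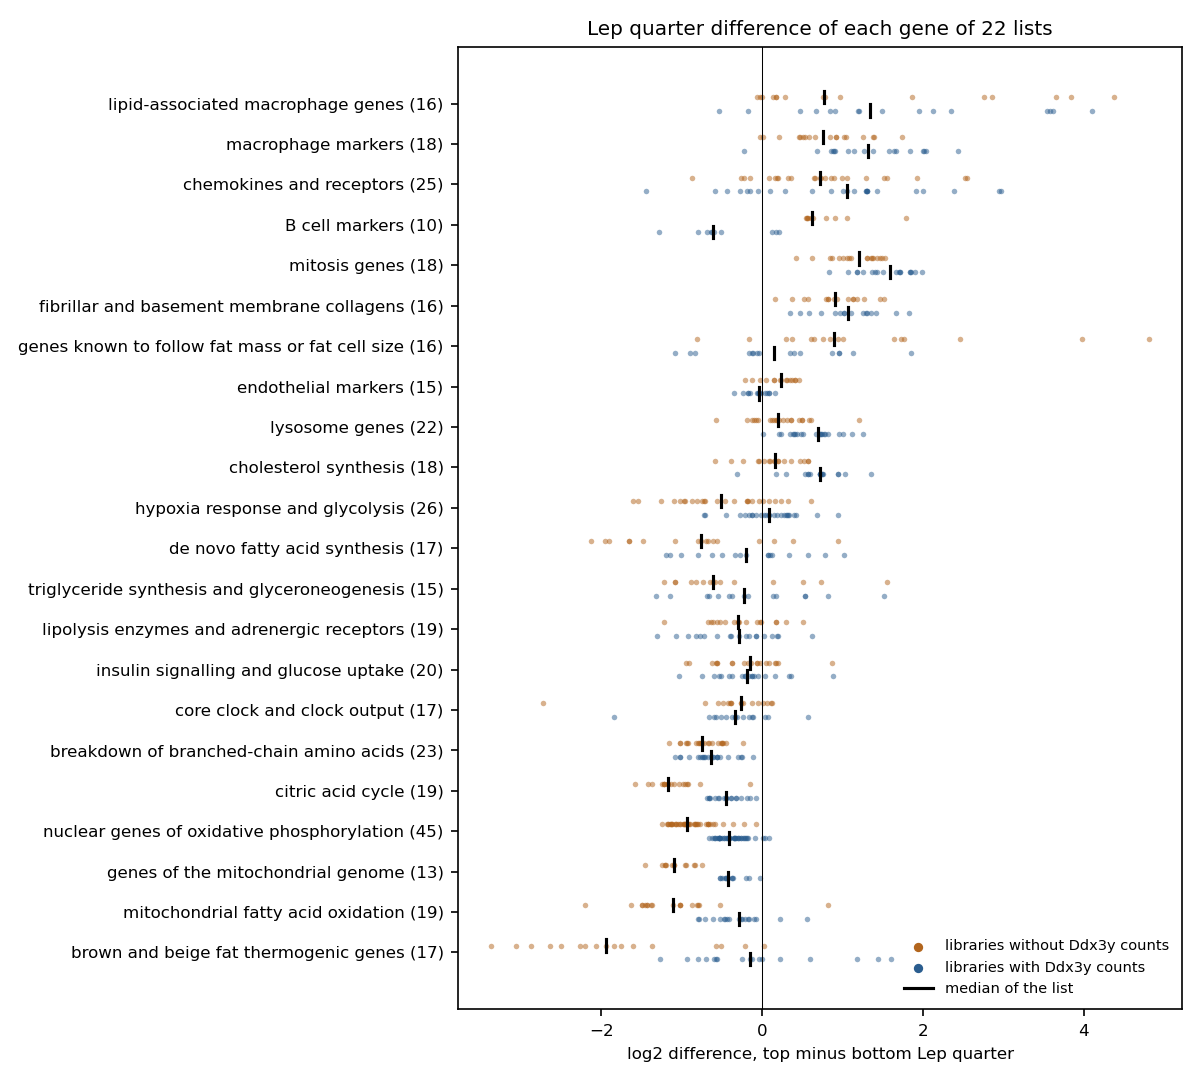
Log2 difference between high-Lep and low-Lep libraries of each tested gene (points) of 22 gene lists, with the median of the list (bars), without and with Ddx3y counts. Mitosis (1.20 and 1.59), collagen (0.91 and 1.06) and macrophage (0.75 and 1.32) lists lie to the right and the citric acid cycle (-1.17 and -0.45) and branched-chain amino acid breakdown (-0.75 and -0.63) to the left, while the B cell list lies on opposite sides (0.62 and -0.61).

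Matrix genes rose with leptin in both sets. Of 16 fibrillar and basement membrane collagens, 15 and 16 were higher and 0 lower (medians 0.91 and 1.06). Col1a1, of the main fibrillar collagen, ran from 102.7 to 4330 CPM (median 349.4) against 314.2 to 2335 CPM (median 784) without Ddx3y counts, and from 118.2 to 670 CPM (median 341.3) against 486.5 to 2218 CPM (median 1085) with them. It was higher by 0.82 ± 0.15 and 1.67 ± 0.09. Col3a1 was higher by 0.57 and 1.42, the basement membrane collagen Col4a1 by 0.79 and 0.90 and Col12a1, a fibril-associated collagen, by 1.47 and 1.82. Of 24 matrix proteins and remodelling enzymes, 16 were higher and 1 lower, then 19 higher and 5 lower (medians 0.43 and 0.82). Timp1, an inhibitor of matrix proteases, was higher by 1.88 and 2.74, Sparc by 1.21 and 1.19 and fibronectin (Fn1) by 0.55 and 0.94, while the protease Mmp9 was lower by 0.96 and 1.28. With Adgre1 as a covariate 13 and 14 of the collagens were higher (medians 0.74 and 0.70), and 11 and 10 of the remodelling genes (medians 0.17 and 0.25).

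All 18 mitosis genes tested were higher in both sets, with 0 lower and medians of 1.20 and 1.59. Mki67, the proliferation antigen, ran from 2.06 to 38.4 CPM (median 5.4) against 6.97 to 103.9 CPM (median 20) without Ddx3y counts, and from 2.32 to 64.4 CPM (median 8.65) against 13.7 to 100.6 CPM (median 38.2) with them. It was higher by 1.52 ± 0.18 and 1.84 ± 0.14, Top2a, the topoisomerase of dividing cells, by 1.36 and 1.71 and the spindle checkpoint kinase Bub1 by 1.47 and 1.99. With Adgre1 as a covariate the counts were 18 and 17 higher, and the medians fell to 0.87 and 0.70. Which cells were dividing was not tested.

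Progenitor markers were higher in 8 and lower in 0 of 16, then higher in 10 and lower in 3 (medians 0.15 and 0.21). Sfrp4 and Wnt2, genes of WNT signalling, were higher by 0.84 and 0.99 and by 0.89 and 0.90, and the membrane protein gene Cd81 by 0.21 and 0.23, while Gsn, an actin-severing protein, was not called (0.03) and then lower by 0.74. Endothelial markers moved little, 11 higher and 1 lower of 15 (median 0.23) without Ddx3y counts and 1 higher and 5 lower (median -0.04) with them. Erg, an endothelial transcription factor, was higher by 0.45 and 0.16, Cdh5, the endothelial cadherin, and Ptprb, a phosphatase of vessels, were higher by 0.38 and 0.40 without Ddx3y counts and not called with them (0.08 and -0.06), and Kdr, the main VEGF receptor, was lower by 0.35 with them. For 13 of the 15 the difference was smaller with Ddx3y counts. With Adipoq as a covariate the Ddx3y-positive count became 5 higher and 0 lower.

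Glycolysis and hypoxia genes were mostly lower without Ddx3y counts and divided with them. Of 26, 3 were higher and 18 lower without Ddx3y counts (median -0.51), and 11 higher and 8 lower with them (median 0.09), with 7 called in opposite directions, 6 lower in both sets and 2 higher in both. Enolase 1 (Eno1) ran from 306.4 to 2334 CPM (median 748) against 282.02 to 978 CPM (median 471.2), lower by 1.09 ± 0.13, and from 190 to 561.2 CPM (median 341.6) against 269.1 to 634.1 CPM (median 454.8), higher by 0.34 ± 0.06. Aldolase (Aldoa) was lower by 0.46 and higher by 0.23 and lactate dehydrogenase (Ldha) lower by 0.36 and higher by 0.30. The hypoxia-regulated genes Egln3, an oxygen sensor, and Pdk1, which diverts pyruvate from mitochondria, were lower in both sets, by 1.60 and 0.72 and by 1.54 and 0.71.

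Cholesterol synthesis was higher mainly in the Ddx3y-positive set, 17 higher and 1 lower of 18 (median 0.72), against 7 higher and 2 lower without Ddx3y counts (median 0.15), and for 12 of the 18 the difference was larger with Ddx3y counts. Dhcr7, of the last step, had medians of 21.5 and 29.1 CPM without Ddx3y counts (0.16, not called) and of 14.6 and 38.8 CPM with them (1.36). Hmgcs1, an early enzyme, was higher by 0.46 and 0.73, and the sterol sensor Insig1 was not called in the first set (0.20) and was higher by 0.75 in the second. At the same Adgre1 9 and 16 were higher.

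Lysosome genes gave 16 higher and 4 lower of 22 without Ddx3y counts (median 0.20) and 21 higher and 0 lower with them (median 0.70). Ctsl, a cathepsin, was higher by 1.21 and 1.26, Npc2, the cholesterol carrier of lysosomes, by 0.49 and 1.12, and Psap, the precursor of the saposins, by 0.10 and 0.72. With Adgre1 as a covariate 9 and 12 were higher, and the smaller Psap value turned to -0.03. Genes of the unfolded protein response were mixed, 2 higher and 7 lower of 15, then 7 higher and 5 lower (medians -0.10 and 0.05). The chaperone Hspa5 was higher by 0.30 and 0.56 and Hsp90b1 by 0.30 in the second set alone (0.08 in the first). Atf3, a stress factor, was not called without Ddx3y counts (0.24) and was higher by 2.08 with them, with medians from 7.03 to 33 CPM, while asparagine synthetase (Asns) was lower by 0.65 and 1.09.

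Glucocorticoid response genes were higher in 2 and lower in 7 of 14, then higher in 3 and lower in 9 (medians -0.13 and -0.30). The metallothionein Mt2 was higher by 0.99 and 1.13, Tsc22d3, a direct target, was called in neither set (0.26 and -0.09), and Pdk4 was lower as given above. Clock genes were lower in 9 and higher in 0 of 17, then lower in 11 and higher in 1 (medians -0.26 and -0.34). Npas2, a partner of the clock complex, was lower by 0.71 and 0.66 and Per1 by 0.24 and 0.34, and Clock itself was called in neither set (0.01 and 0.07). Held at the same Adgre1, the 11 became 4. Ribosomal protein genes differed by small amounts, 0 higher and 11 lower of 20, then 1 higher and 7 lower (medians -0.13 and -0.07), such as Rps6, lower by 0.21 and 0.23, Rpl4, lower by 0.08 and then -0.06, not called, Rplp0, lower by 0.09 and then -0.04, not called, and Rpl5, at 0.26, not called, and higher by 0.52.

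The B cell markers differed between the 2 sets. The 10 B cell markers were all higher in the Ddx3y-negative set (median 0.62), whereas 0 were higher and 7 lower in the Ddx3y-positive set (median -0.61), so that 7 were called in opposite directions. The summed level of the 10 rose in its median in both sets, from 44.9 to 184.5 CPM without and from 122.9 to 260.9 CPM with Ddx3y counts, where the low-Lep maximum was 3539 CPM and the high-Lep maximum 734.7 CPM. Ighm, the IgM heavy chain, had medians of 93.6 and 204.9 CPM with Ddx3y counts, where it was not called (0.12), under a low-Lep maximum of 2717 CPM, after 1.79 without Ddx3y counts. Jchain, which joins antibodies, ran from 0.499 to 51.5 CPM (median 4.25) against 0.234 to 164.5 CPM (median 6.79) without Ddx3y counts, so that the ranges overlapped widely. It was higher by 0.79 there and lower by 1.28 with Ddx3y counts, and Cd22 higher by 1.05 and not called (0.18). With limma, Ighm (0.82) and Cd22 (0.45) were called higher with Ddx3y counts as well, and Cd22 also in groups drawn within blocks of mouse numbers (0.43), while it turned to -0.78 with Adgre1 as a covariate. In the Ddx3y-positive set Jchain had medians of 10.6 and 10.1 CPM but maxima of 722 and 91.2 CPM, so that single low-Lep libraries stood far above the rest. There the count of 7 became 2 with limma on log values, 1 in the extreme 10 percent and 3 in groups drawn within blocks of mouse numbers. The Ddx3y-negative count of 10 became 3 in the extreme 10 percent and 3 with Adgre1 as a covariate.

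Of 14 T cell markers, 5 were higher and 0 lower, then 2 higher and 2 lower (medians 0.26 and -0.18). The summed level of the T cell list rose in its median in both sets, from 13.9 to 27.9 and from 19.5 to 45.4 CPM. With Ddx3y counts its low-Lep maximum was 177.7 CPM and its high-Lep maximum 142.1 CPM. Il7r, the interleukin 7 receptor, was higher by 1.69 and 2.25 and Trac, the constant part of the T cell receptor alpha chain, by 0.68 and 1.83. With Adgre1 as a covariate the Ddx3y-positive count became 2 higher and 11 lower. Mast cell and neutrophil markers gave 2 higher and 4 lower of 12, then 3 higher and 0 lower (medians -0.14 and 0.14). S100a8, a calcium-binding protein of neutrophils and monocytes, was higher by 1.29 and 2.98, while its partner S100a9 was lower by 0.97 and not called in the second set (-0.18). Kit, the receptor of mast cells, was higher by 0.31 and 0.26, and the mast cell protease Mcpt4 was called in neither (-0.32 and -0.03).

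Markers of tissues next to the fat pad were measured in the same libraries. Skeletal muscle markers gave 9 lower and 0 higher of 10 without Ddx3y counts (median -1.71) and 6 lower and 2 higher with them (median -0.44), while their summed median moved from 37.8 to 61.3 CPM and from 83.9 to 63.6 CPM under a low-Lep maximum of 1217 CPM without Ddx3y counts. Ckm, muscle creatine kinase, was lower by 2.34 and 1.37 at medians from 0.121 to 0.35 CPM, troponin Tnnt3 by 2.02 and 1.10 and the myosin light chain Myl1 by 0.33 and 0.38, and actin Acta1 was called in neither (0.57 and -0.37). The Ddx3y-positive call of Ckm was lost in 6 alternatives (-0.69 in larger groups) and that of Tnnt3 in 4 (-0.0085 with DESeq2). Without Ddx3y counts Acta1 was called higher with limma (1.39) and without the libraries that stood apart (0.77). Mesothelial markers were higher in 1 and lower in 1 of 11, then lower in 9 (medians -0.04 and -0.45), with Upk3b, a defining marker, at -0.15, not called, and lower by 0.49, Lrrn4 at -0.11, not called, and lower by 0.45, the keratin Krt18 at -0.17, not called, and lower by 1.13, and the epithelial cadherin Cdh1 lower by 1.37 and 1.33. The calls of Cdh1 did not hold throughout, with -0.0239 with limma and -0.53 in larger groups without Ddx3y counts, and, with them, -1.03 without the libraries that stood apart and 0.16 with Adgre1 as a covariate. Of 11 liver markers, Hp was higher, by 1.38 ± 0.15 and 2.15 ± 0.14, Cyp2e1 was lower as given above, and 9 were called in neither direction in each set. In the intermediate libraries with Ddx3y counts, however, 7 of the 11 fell with Lep and 1 rose (median slope -1.49 log2 units per 2-fold of Lep). Without Ddx3y counts 1 fell and 1 rose there (median slope 0.03). Haptoglobin (Hp) is also made by fat cells, and its medians rose from 258.2 to 567.3 and from 384.6 to 1948 CPM.

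Epididymis markers reached a sum of 17112 CPM in 1 low-Lep Ddx3y-positive library against a group median of 1.33 CPM and a high-Lep maximum of 23.7 CPM. Ceacam10, an epididymal gene, was lower by 7.85 there at medians of 0.309 and 0.206 CPM, Tgm4 and Adam28 by 6.99 and 1.62, and the count of 3 lower of 4 became 0 without the libraries that stood apart. Ovary markers gave 5 higher and 1 lower of 7 without Ddx3y counts (median 1.22) and 3 lower of 7 with them (median -0.30), under a high-Lep maximum of 2313 CPM and group medians of 180.5 and 112.2 CPM. Cyp11a1, of steroid synthesis, was higher by 4.58 without Ddx3y counts at medians of 0.241 and 0.232 CPM, and its value was -0.04 with DESeq2 and -0.43 with Lep ranked on normalised CPM. The inhibin subunit Inha was higher by 3.28, a value that turned to -0.19 with DESeq2 and -0.20 with Lep ranked on normalised CPM, and lower by 0.47 with Ddx3y counts, and the gap junction gene Gja1 was lower by 0.78 and not called in the second set (-0.08). Mammary epithelium markers gave 1 higher and 2 lower of 4, then 3 lower (medians -0.71 and -1.29), at summed medians of 1.18 to 16.5 CPM. Elf5, the mammary transcription factor, was lower by 1.27 and 3.48, Epcam by 0.97 and 1.18, and Cldn3 at -0.44, not called, and lower by 1.40. Of the red blood cell markers, 1 of 7 was lower, then 4 (medians -0.29 and -0.43), with the beta globin Hbb-bs at -0.28, not called, and lower by 0.43, the alpha globin Hba-a2 at -0.22, not called, and lower by 0.56, the heme enzyme Alas2 at -0.34, not called, and lower by 0.45, and the band 3 anion exchanger Slc4a1 lower by 1.60 and not called in the second set (-0.59). The 1 pancreas marker tested, Cela1, was higher by 1.55 and 1.42 at summed pancreas medians of 4.10 to 24.6 CPM, and 11 of the 12 markers of that list did not pass the filter on low counts or were not in the table.

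The difference between high-Lep and low-Lep libraries was then compared between the sets. In the fit of both sets, it was higher with Ddx3y counts for 3615 genes (19.7 percent of those tested) and lower for 4013 (21.8 percent), from the interaction of set and Lep group in edgeR. Sfrp5, a secreted WNT antagonist of fat, gave the largest interaction of the genes named for this test. It ran from 0.452 to 21.7 CPM (median 1.83) against 16.7 to 264.2 CPM (median 90.1) without Ddx3y counts, and from 5.43 to 503.8 CPM (median 102.8) against 33.3 to 504.1 CPM (median 200) with them. The groups were nearly apart in the first set (53 of 56 high-Lep libraries above every low-Lep library) and overlapped in the second (1 of 60), and the difference was 4.81 ± 0.23 and 0.96 ± 0.18. Ret, the receptor of glial growth factors, rose from a median of 9.33 to 61.5 CPM without overlap of the groups and from 23.2 to 45.8 CPM with it, higher by 2.51 ± 0.11 and 0.92 ± 0.10.

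In both genes the low-Lep Ddx3y-positive median lay above the low-Lep Ddx3y-negative median, as it did for Lep itself. Other genes turned direction. Adssl1, of purine synthesis, ran from 2.45 to 21.7 CPM (median 9.24) against 1.93 to 20 CPM (median 5.96) without Ddx3y counts, and from 1.7 to 9.58 CPM (median 4.04) against 2.26 to 43.6 CPM (median 13.9) with them, lower by 1.04 ± 0.15 and higher by 1.72 ± 0.12. Dhrs9, a retinol dehydrogenase, was lower by 0.54 and higher by 1.92, the glycogen primer Gyg lower by 0.49 and higher by 0.52, and Acsl5, which activates fatty acids, lower by 1.08 and higher by 0.37. Pim1, a kinase, was lower by 1.80 and not called in the second set (0.04).

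In the opposite sense, Npdc1, a gene of neural differentiation, was higher by 0.40 and lower by 0.30, and the calcium pump Atp2b4 was higher by 0.40 and lower by 0.48. Palm, which shapes the plasma membrane, was higher by 0.69 and not called in the second set (-0.10, adjusted p = 0.0539). Gstt1, a glutathione transferase, was not called in the first set (-0.01) and lower by 1.23 in the second. The interaction values of the genes named here kept their sign and their call in every alternative run.

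**Figure D5:**
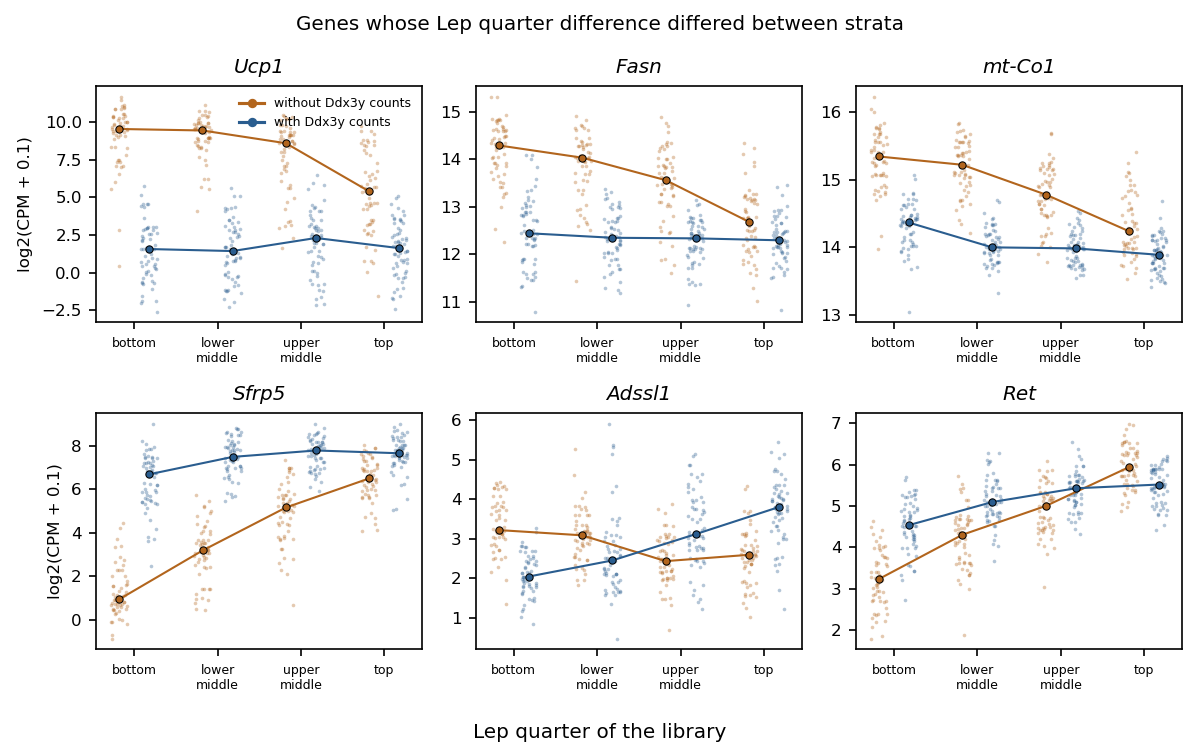
Level (log2 of CPM + 0.1) of 6 genes whose difference between high-Lep and low-Lep libraries differed between the sets, by group from low-Lep (bottom) to high-Lep (top); each point is 1 library and the lines join the group medians. The Adssl1 medians fall from 9.24 to 5.96 and rise from 4.04 to 13.9 CPM, and the Sfrp5 medians rise from 1.83 to 90.1 and from 102.8 to 200 CPM.

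The intermediate libraries, 50.4 percent of the series, took no part in the choice of high-Lep and low-Lep libraries, and in them each gene was fitted on log2 Lep CPM within each set. In the intermediate Ddx3y-negative libraries 3252 genes rose with Lep (17.7 percent of those tested) and 3360 fell (18.3 percent), and in the intermediate Ddx3y-positive libraries 1975 rose (10.7 percent) and 3669 fell (20 percent). Of the genes at least 2-fold higher in high-Lep libraries, the slope had the same sign for 706 of 734 (96.2 percent) without and 763 of 809 (94.3 percent) with Ddx3y counts. Of those at least 2-fold lower, it had the same sign for 94.8 percent and for 66.1 percent. Over all called genes the shares were 91.7 and 82.7 percent. In the Ddx3y-positive set, therefore, fewer of the large decreases had the same sign in the intermediate libraries. Lep spanned 2.14 log2 units in the intermediate Ddx3y-negative libraries and 1.46 in the Ddx3y-positive ones, so slopes and calls rest on unequal contrasts.

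By gene group, all 23 genes of branched-chain amino acid breakdown fell with Lep in the intermediate Ddx3y-negative libraries and 22 in the Ddx3y-positive ones. Of 16 collagens 12 and 14 rose, of 18 macrophage markers 13 and 11, of 16 lipid-associated macrophage genes 10 and 12, and of 18 mitosis genes 10 and 7. Of 45 oxidative phosphorylation genes 43 fell without and 20 with Ddx3y counts, of 19 fatty acid oxidation genes 18 and 5, and of 13 mitochondrial genome genes 12 and 1. The 10 B cell markers gave 0 rising and 0 falling in both sets. The slope of Bckdha was -0.39 log2 units per 2-fold of Lep without Ddx3y counts and -0.37 with them, that of Hp 0.25 and 1.26, that of Npr3 0.76 and 0.13 (adjusted p = 0.192), and that of Lepr 0.08 and 0.19, called in neither set.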

How the data were processed

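Adipose polyA RNA of 468 Diversity Outbred mice was sequenced, 1 library per mouse. The authors aligned paired reads as single ends to a transcriptome of the 8 founder strains with EMASE through GBRS (versions not given in the sources used here) and deposited estimated counts per gene, of which 66.8 percent were whole within 1e-06. A second table, transformed with DESeq2, was not used here. The submitters' processing notes list GRCm38 and DESeq2. Estimated counts were rounded before testing. ERCC spike-ins were not used here.

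Libraries were grouped by Ddx3y counts and Lep CPM, and the members, gene lists and tests were chosen with earlier results of these data known. Genes with at least 10 counts in at least 50 percent of libraries were tested (18379 of 23180) with TMM normalisation (factors 0.579 to 1.36), glmQLFit and glmQLFTest of edgeR 4.0.16 in R 4.3.3, and Benjamini-Hochberg adjustment. A prior count of 2 entered only the log2 CPM values used for limma and for the Adgre1 and Adipoq covariates. High-Lep and low-Lep libraries were fitted within each set, their interaction in a fit of both, and the intermediate libraries on log2 Lep CPM. P-values measure the spread between animals, which the fits treated as independent. The study's own tests used sex, outbreeding generation and wave as covariates, and its mapping used kinship. Generation, wave, sequencing batch and relatedness are not given by the labels and entered no fit here. The function was tested on simulated data in which few genes changed, balanced up and down. In the data compared here many genes were called, so that simulation could not check the calls in such a setting.

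Named genes were, without Lep, the 12 higher and 12 lower in both sets with the largest mean difference at a mean of at least 5 CPM, the 6 of lowest interaction p in each direction, and of each list the 2 most abundant and the 2 most changed members, with further members named after their values were seen. Some genes that this rule names are not reported here. Gene positions in the table matched GENCODE M21 for 99.3 percent of genes.

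Alternatives were DESeq2 1.42.0 (size factors and Wald test), limma 3.58.1, no filter, other group sizes, ranking on TMM-scaled CPM, covariates (mouse and library number, Adgre1, Adipoq), groups within 5 blocks of mouse numbers, and leaving out libraries. Total counts of 35.3 M to 137.8 M per library set the counting error.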

Additional observations from a re-analysis of the deposited data

Results flagged for a closer look

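The 11 genes given here for the test of the difference between the sets were flagged because the high-Lep minus low-Lep difference itself differed between libraries with and without Ddx3y counts in edgeR's interaction test. Positive values are larger with Ddx3y counts. The interaction was 2.73 for Adssl1, 1.81 for Pim1, 0.98 for Gyg, 2.44 for Dhrs9 and 1.41 for Acsl5. It was -3.88 for Sfrp5, -0.73 for Npdc1, -0.82 for Palm, -1.62 for Ret, -1.25 for Gstt1 and -0.91 for Atp2b4. The contrast in Lep was larger without Ddx3y counts (14.4 against 7.14 between medians). Fitted as a slope per 2-fold of Lep over all libraries, the difference between the sets kept its sign and was called for all 11 genes, from 0.61 for Adssl1 to -0.57 for Sfrp5 log2 units per 2-fold, and 46.22 percent of the genes tested were called. The 11 genes were chosen on the interaction in these same data. The sets also lay at different Lep levels, with medians of 497.8 CPM without and 2066 CPM with Ddx3y counts, and a curved relation to Lep was not tested.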

How the results depend on the processing

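Of the counts of genes under the alternatives, 17 (9.29 percent) moved by over 1.5 times, given below as shares of the genes tested. Without a filter on low counts, which raised the genes tested from 18379 to 23179, 1106 genes (4.772 percent, after 3.99) were at least 2-fold higher without and 1088 (4.694 percent, after 3.05) at least 2-fold lower with Ddx3y counts. In the extreme 10 percent of libraries 7.411 percent were at least 2-fold higher and 6.431 percent at least 2-fold lower without Ddx3y counts, and 20.94 percent differed between the sets. With Adgre1 as a covariate 2.557 percent were at least 2-fold higher without Ddx3y counts. With them 20.08 percent were higher (1.545 percent at least 2-fold) and 17.92 percent lower (1.192 percent at least 2-fold), 14.09 percent were higher and 12.84 percent lower in both sets, and 4.668 percent rose and 11.31 percent fell in the intermediate libraries. With Adipoq as a covariate 4.973 percent were at least 2-fold lower with Ddx3y counts, and 3.841 percent rose and 12.04 percent fell in those intermediate libraries. For the genes named, 5460 of 5778 values kept direction and side of the threshold, 2.41 percent lost the call, 81 gained it in the same direction, 71 uncalled values turned sign and 27 called values reversed. Of the 71, 6 were called in the other direction, all with Ddx3y counts: Pim1 (-0.31), Nfkb1 (-0.19) and Cd22 (-0.78) with Adgre1, and Ccdc80 (0.26), Lpl (0.28) and Ptprb (0.18) with Adipoq as a covariate. With Ddx3y counts and Adgre1 as a covariate, the reversed values were 0.90 for Atp2a1, -0.23 for Socs3, 0.0702 for Fasn, 0.0143 for Akt2, 0.0337 for mt-Nd3, -0.11 for Folr2, -0.20 for Tnf, 0.16 for Cdh1, 0.17 for Krt18, 2.85 for Ceacam10, 2.43 for Tgm4, 0.27 for Epcam, 1.13 for Elf5 and 0.39 for Cldn3, and without Ddx3y counts -0.0278 for Psap. Akt2 gave 0.0277 with Adipoq. With Ddx3y counts Atp2a1 gave 0.26 with DESeq2 and 0.16 with limma, and Adam28 0.22 in the extreme 10 percent. Without Ddx3y counts Cyp11a1, Inha and Slc4a1 gave -0.0354, -0.19 and 0.23 with DESeq2, Cyp11a1 and Inha -0.43 and -0.20 with Lep ranked on TMM-scaled CPM, Inha and Ceacam10 -0.0586 and -0.74 in the extreme 10 percent, and Epcam 0.0055 in larger groups. The cause was not tested. Leaving out the library of lowest Lep and that of highest Adgre1, chosen after seeing the data, moved no count by 1.5 times and ended the calls of Rpl4, Rplp0 and Epcam without Ddx3y counts. Robust estimation was also added after seeing the data. The planned use of limma on the deposited transformed values was not run. No paired analysis was possible because the labels give 1 group and no replicate numbers. Depth, at least 35.3 M counts per library, limits genes at medians under 1 CPM.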
